A study of Mus musculus with 12 samples.

Results

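9 genes that mark Sertoli cells, the somatic nurse cells of the seminiferous tubule, were followed across 12 RNA-seq libraries of sorted mouse spermatogonia. *Sox9*, *Wt1*, *Amh*, *Clu*, *Cldn11*, *Fshr*, *Dhh*, *Inha* and *Gdnf* were taken by their symbols, and each of these 9 genes had 1 row among the 55385 rows of the table. They served as a gauge of Sertoli cell RNA, or of misplaced Sertoli gene expression, in cells that were sorted as germ cells. Undifferentiated spermatogonia (A_undiff) had been gated as E-Cadherin+ CD9high KIT- cells and early differentiating spermatogonia (A_diff) as E-Cadherin+ CD9medium KIT+ cells, after dead cells were removed. The 12 libraries form 6 groups of 2, and each library is a pool of sorted cells. The number of mice behind a pool is not given in the sources used here.

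The WT A_undiff and WT A_diff groups came from untreated C57BL/6 mice of 2 to 3 months (mo). The other 4 groups were A_undiff of mice on a mixed C57BL/6 X FVB/NJ background, sampled at about 2 mo. The PRC1cKO mice were Ring1-/-; Rnf2 F/-; Ddx4-Cre, and their PRC1ctrl littermates were Ring1-/-; Rnf2 F/+; Ddx4-Cre. All 4 of these groups therefore lack *Ring1* and carry the germ cell-driven Cre, and no group of this background has intact *Ring1*. A pair of these groups was untreated. The other pair received Win18446, an inhibitor of retinoic acid synthesis, under the skin once a day for about 30 days from 1 mo of age, at 40 µg/µl in 50 µl of DMSO, and was sampled after the last dose. WT and Win18446 libraries were made from 100000 to 150000 cells with the TruSeq stranded mRNA kit, whereas the untreated PRC1 libraries were made from about 7000 cells with a low-input Smart-Seq2 kit.

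Sertoli cells line the tubule, hold all stages of germ cells, and build the niche in which A_undiff self-renew. SOX9 and WT1 are transcription factors that set up and keep Sertoli cell identity. GDNF and DHH are secreted ligands, AMH and the inhibin alpha subunit encoded by *Inha* belong to the TGF-beta family, FSHR receives the pituitary hormone FSH, claudin 11 seals the tight junctions of the blood-testis barrier, and clusterin, encoded by *Clu*, is an abundant secreted glycoprotein. PRC1 is the Polycomb complex that ubiquitylates histone H2A through RNF2 or RING1, and it keeps many developmental genes silent.

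Expression was measured as TPM, in which each gene is a share of its library after correction for transcript length, so that levels may be compared between genes. Read numbers are lost in this unit, and neither depth nor counting error is known for these values. At least 1 TPM was reached by 12422 to 16599 genes, depending on the library. Mitochondrial genes held 12.5% to 16.7% of the TPM of the 4 Smart-Seq2 libraries and 4.28% to 6.69% of the other 8. *Ring1* stood at 0.03 to 0.25 TPM in the 8 PRC1 libraries and at 8.61 to 19.9 TPM in WT. *Rnf2* was not lower under the label PRC1cKO, at 56.7 and 67.5 TPM against 28.3 and 47.6 TPM at 2 mo and at 86.2 and 93.1 TPM against 78.1 and 67.2 TPM after Win18446. One value per gene does not separate transcripts with and without the floxed exons, so the genotypes are given as the libraries are labelled.

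The 9 genes summed to 31.3 to 51.8 TPM in the 4 WT libraries, 9.63 to 42.9 TPM in the 4 untreated PRC1 libraries and 111 to 201 TPM in the 4 Win18446 libraries. A list of 12 genes of spermatogonia summed to 1046 to 1965 TPM, above the 9 members in each library. The log2 fold changes of its *Ddx4* and *Dazl* in WT A_diff were -0.02 and 0.62, so this sum is not of A_undiff markers alone. Single genes did not all follow these sums, and *Clu* stood above *Gfra1*, *Etv5*, *Id4*, *Nanos2* and *Cdh1* of that list in all 4 Win18446 libraries. Only *Clu*, *Wt1*, *Cldn11*, *Inha*, *Sox9* and *Dhh* reached 1 TPM in at least 2 libraries. *Amh* reached it in 1 library, and *Fshr* and *Gdnf* in none. In bulk RNA, fewer Sertoli cells and less RNA per Sertoli cell cannot be told apart, nor can either be told apart from a low level in the spermatogonia.

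*Clu* (ENSMUSG00000022037, chromosome 14 from 65968483 to 65981547, GRCm38, + strand) made up 57.1% to 74.5% of the sum of the 9 genes in the 8 TruSeq libraries and 23.3% to 67.7% in the 4 Smart-Seq2 libraries. It was the highest member in each library but untreated PRC1ctrl replicate 1, where *Sox9* was higher. It stood at 27.3 and 31.3 TPM in WT A_undiff, 18.8 and 19.6 TPM in WT A_diff, 2.24 and 9.52 TPM in untreated PRC1ctrl, 19.5 and 29.0 TPM in untreated PRC1cKO, 136 and 78.6 TPM in PRC1ctrl after Win18446 and 138 and 77.1 TPM in PRC1cKO after Win18446. The 4 Win18446 libraries lay above the other 8, and the 2 untreated PRC1ctrl libraries lay below the rest. From the lowest group mean to the highest, neighbours overlapped except at the steps from untreated PRC1ctrl to WT A_diff and from WT A_undiff to the Win18446 groups.

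*Inha* (ENSMUSG00000032968, chromosome 1 from 75507077 to 75510366, + strand) gave 1.63 and 4.24 TPM in WT A_undiff and 3.76 and 4.98 TPM in WT A_diff. In untreated PRC1ctrl it was at 0.06 and 0.36 TPM and in untreated PRC1cKO at 0.45 and 3.16 TPM. After Win18446 it was at 16.6 and 11.5 TPM in PRC1ctrl and at 26.7 and 14.9 TPM in PRC1cKO. Every Win18446 library was thus higher than the 8 others, and the 2 Win18446 groups overlapped each other.

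*Cldn11* (ENSMUSG00000037625, chromosome 3 from 31149920 to 31164324, + strand) shared this pattern. Its values were 3.25 and 3.32 TPM in WT A_undiff, 1.42 and 2.15 TPM in WT A_diff, 0.60 and 1.66 TPM in untreated PRC1ctrl, 1.42 and 2.44 TPM in untreated PRC1cKO, 13.6 and 7.53 TPM in PRC1ctrl after Win18446 and 17.7 and 9.72 TPM in PRC1cKO after Win18446. Among the 8 libraries without Win18446, only the step from untreated PRC1cKO to WT A_undiff separated neighbouring groups.

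*Dhh* (ENSMUSG00000023000, chromosome 15 from 98891152 to 98898540, - strand), the Desert hedgehog ligand of Leydig and peritubular cells, reached at most 2.57 TPM. It was listed at 0.41 TPM in both WT A_undiff libraries, 0.76 and 0.52 TPM in WT A_diff, 0.08 and 0.13 TPM in untreated PRC1ctrl, 0.16 and 0.38 TPM in untreated PRC1cKO, 1.44 and 1.24 TPM in PRC1ctrl after Win18446 and 2.57 and 1.39 TPM in PRC1cKO after Win18446. The 4 Win18446 libraries were again the highest. Of its exonic bases, 12.4% are shared with *Rhebl1* on the same strand and 25.2% lie opposite *Gm49442*, so some of its reads may belong to these genes. The exons of the other 8 members overlap no other gene of gencode vM21.

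*Amh* (ENSMUSG00000035262, chromosome 10 from 80805243 to 80807648, + strand), which adult Sertoli cells express far less than immature ones, was listed at 0 in 5 of the 12 libraries. WT A_undiff had 0 and 0.09 TPM, WT A_diff 0 and 0.26 TPM, untreated PRC1ctrl 0.02 and 0 TPM, and untreated PRC1cKO 0 TPM in both. PRC1ctrl after Win18446 had 0.64 and 0.69 TPM, and PRC1cKO after Win18446 had 1.91 and 0.88 TPM. All 4 Win18446 libraries lay above the others here too, and 1 of them exceeded 1 TPM.

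*Wt1* (ENSMUSG00000016458, chromosome 2 from 105126529 to 105173616, + strand) did not share this order. It stood at 9.37 and 10.9 TPM in WT A_undiff, 5.24 and 5.39 TPM in WT A_diff, 1.12 and 3.31 TPM in untreated PRC1ctrl, 1.40 and 2.06 TPM in untreated PRC1cKO, 11.6 and 9.98 TPM in PRC1ctrl after Win18446 and 11.7 and 10.6 TPM in PRC1cKO after Win18446. WT A_undiff and both Win18446 groups overlapped, WT A_diff lay below them, and the 4 Smart-Seq2 libraries were lowest.

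*Sox9* (ENSMUSG00000000567, chromosome 11 from 112782224 to 112787760, + strand) differed from the others in its Smart-Seq2 libraries. The 4 Smart-Seq2 libraries were its highest, at 5.50 and 8.24 TPM in untreated PRC1ctrl and 12.2 and 5.75 TPM in untreated PRC1cKO. It was at 0.59 and 1.18 TPM in WT A_undiff, 0.47 and 0.75 TPM in WT A_diff, 1.48 and 1.04 TPM in PRC1ctrl after Win18446 and 1.78 and 1.49 TPM in PRC1cKO after Win18446. *Sox9* was therefore the only member whose untreated PRC1 libraries all exceeded every WT and every Win18446 library.

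*Fshr* (ENSMUSG00000032937, chromosome 17 from 88984952 to 89200675, - strand) lay between 0 and 0.78 TPM. Its values were 0.07 and 0.27 TPM in WT A_undiff, 0.21 and 0.15 TPM in WT A_diff, 0.01 and 0.43 TPM in untreated PRC1ctrl, 0 and 0.04 TPM in untreated PRC1cKO, 0.78 and 0.18 TPM in PRC1ctrl after Win18446 and 0.77 and 0.58 TPM in PRC1cKO after Win18446. All neighbouring groups overlapped, apart from untreated PRC1cKO and WT A_undiff. *Gdnf* (ENSMUSG00000022144, chromosome 15 from 7810846 to 7837575, + strand), the niche factor that binds GFRA1 and RET on A_undiff, was lower still, between 0 and 0.67 TPM. It had 0 and 0.07 TPM in WT A_undiff, 0.67 and 0.53 TPM in WT A_diff, 0 TPM in both untreated PRC1ctrl libraries, 0.06 and 0.01 TPM in untreated PRC1cKO, 0.33 and 0.22 TPM in PRC1ctrl after Win18446 and 0.48 TPM in both PRC1cKO libraries after Win18446. *Gdnf* was the only member with its highest group mean in WT A_diff.

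**Figure D1:**
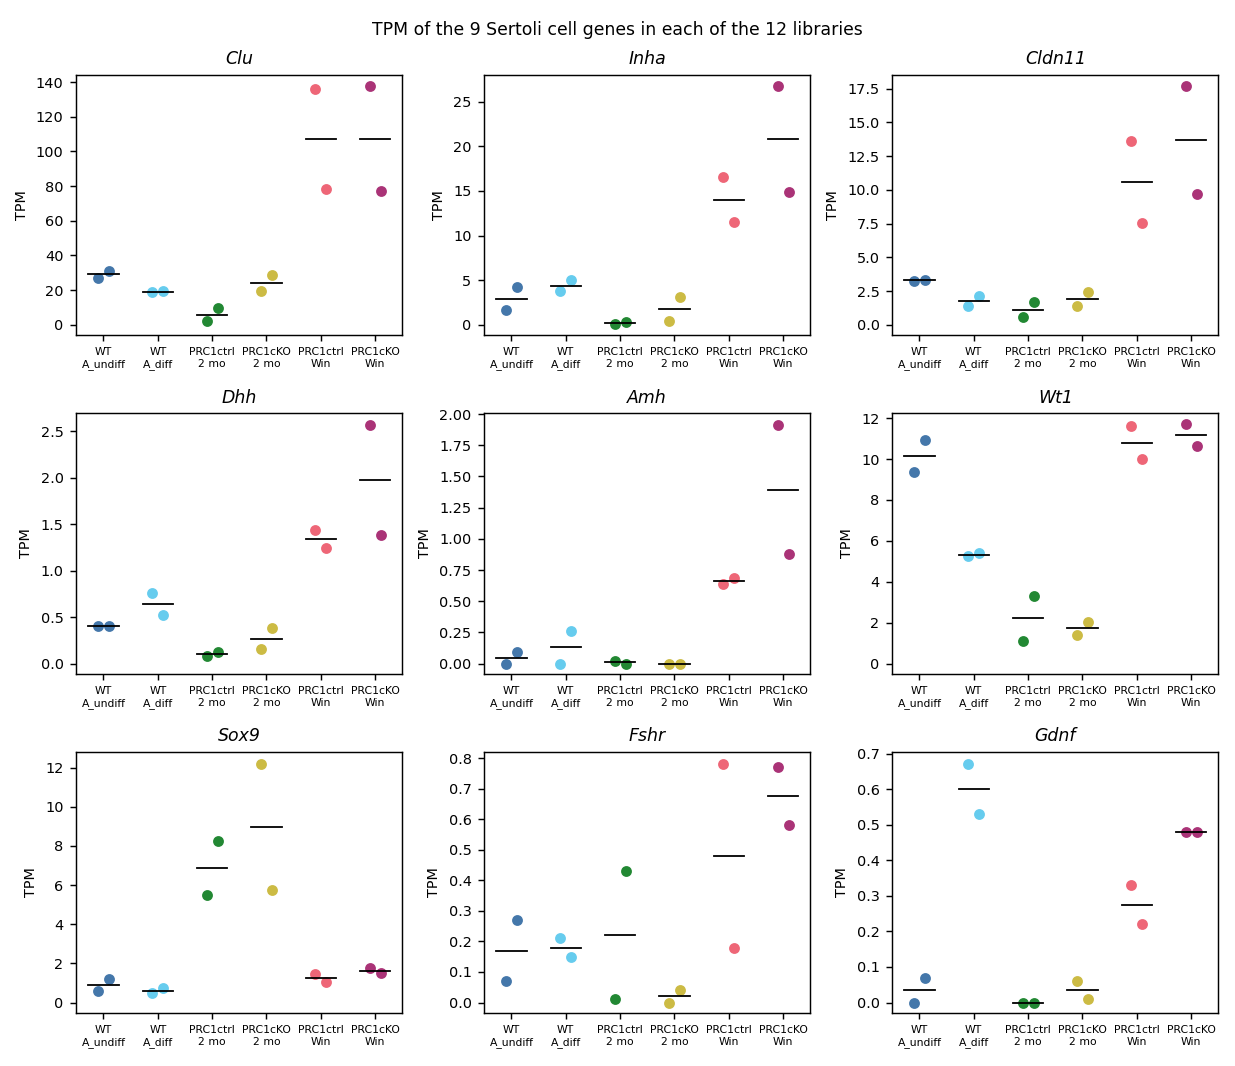
TPM of the 9 genes in each of the 12 libraries. Each panel is 1 gene, points are libraries, black bars are means of 2 libraries, and the vertical axes start at or just under 0 and differ between panels. *Clu*, *Inha*, *Cldn11*, *Dhh* and *Amh* are highest in the 4 Win18446 libraries, *Sox9* in the 4 untreated PRC1 libraries, at 5.50 to 12.2 TPM.

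For 5 of the 9 members, *Clu*, *Inha*, *Cldn11*, *Dhh* and *Amh*, all 4 Win18446 libraries lay above all 8 others. The same held for 5.62% of the 37208 genes listed above 0 in any library, and after median-of-ratios scaling it held for 5 members and 2.98% of the genes. The mean of the 4 Win18446 libraries was 107 ± 34.1 TPM for *Clu* and 17.4 ± 6.55 TPM for *Inha* (SD, n = 4), against 24.3 ± 6.06 TPM and 3.65 ± 1.44 TPM over the 4 WT libraries and 15.1 ± 11.7 TPM and 1.01 ± 1.44 TPM over the 4 untreated PRC1 libraries. *Cldn11* averaged 12.1 ± 4.48 TPM, 2.54 ± 0.916 TPM and 1.53 ± 0.758 TPM over the same sets of 4. *Wt1* averaged 11.0 ± 0.828 TPM, 7.73 ± 2.86 TPM and 1.97 ± 0.975 TPM. The Win18446 libraries differ from WT in strain, *Ring1*, *Rnf2* genotype, the Cre transgene and treatment. They differ from the untreated PRC1 libraries in treatment, kit and number of cells. These differences therefore cannot be told apart and were not tested.

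The promoters of *Cldn11*, *Dhh* and *Fshr* are shown because the first pair of genes moved together over the libraries while *Fshr* stayed near 0, and because CpG-rich promoters are the usual sites of Polycomb binding. The contrast is one of level, since *Fshr* also correlated with *Cldn11* and *Dhh* (Pearson's r of log2(TPM + 1) 0.81 and 0.76). RefSeq promoter windows on GRCm38.p6 of 300 bases, 250 before and 50 after the start, were at hand for 5 of the 9 members. Printed are the 250 bases before the start, read on the strand of the gene, with CG dinucleotides in capitals. *Cldn11* lies at chr3:31149670-31149919 on the + strand, *Dhh* at chr15:98898541-98898790 on the - strand and *Fshr* at chr17:89200676-89200925 on the - strand, and none of these stretches overlaps an exon of gencode vM21.
Cldn11: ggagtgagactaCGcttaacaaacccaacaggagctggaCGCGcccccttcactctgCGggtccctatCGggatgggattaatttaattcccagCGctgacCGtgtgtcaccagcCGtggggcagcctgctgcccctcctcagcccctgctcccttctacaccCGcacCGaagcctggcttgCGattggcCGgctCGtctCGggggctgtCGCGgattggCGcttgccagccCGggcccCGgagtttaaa
Dhh: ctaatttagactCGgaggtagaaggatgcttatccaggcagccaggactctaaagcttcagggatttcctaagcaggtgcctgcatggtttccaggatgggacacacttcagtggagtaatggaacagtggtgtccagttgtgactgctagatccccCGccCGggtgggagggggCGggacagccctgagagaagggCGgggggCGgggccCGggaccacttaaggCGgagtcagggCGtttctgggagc
Fshr: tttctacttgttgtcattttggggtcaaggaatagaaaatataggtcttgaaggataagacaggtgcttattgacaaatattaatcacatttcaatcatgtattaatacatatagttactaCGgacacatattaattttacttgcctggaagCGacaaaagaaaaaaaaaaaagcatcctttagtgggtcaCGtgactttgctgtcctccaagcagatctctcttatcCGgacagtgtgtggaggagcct
The stretches hold 19, 9 and 4 CG dinucleotides. Over the whole window *Cldn11* has 24, *Dhh* 12, *Fshr* 6 and *Inha* 5, and the windows of 2 *Gdnf* starts have 11 and 22, against a median of 7 over 32851 promoters. A count at least as high as that of *Cldn11* was found in 20.0% of promoters, and as high as that of *Fshr* in 56.4%. 6 short motifs were searched on both strands, AACAAT and ACAAAG of SOX factors, AGATAA and TGATAA of GATA factors, AGGTCA of nuclear receptors and GCGTGG of WT1 and related zinc fingers. None of these letters occurs in the *Cldn11*, *Dhh* or *Fshr* windows. AGGTCA is present once in the *Inha* window, 69 bases before the start, and once in a *Gdnf* window, and 16.3% of all promoters hold it. AGATAA is present in the other *Gdnf* window and in 11.2% of all promoters. The other shares were 10.7% for AACAAT, 18.7% for ACAAAG, 9.05% for TGATAA and 15.6% for GCGTGG. For *Inha*, the window lies inside the gene as placed above, and 160 of the 250 bases before the RefSeq start lie in exons of gencode vM21. This window is therefore not free of transcribed sequence. The 50 bases after the start occur unbroken in a gencode vM21 transcript of the gene for *Cldn11*, *Dhh* and *Fshr*, but not for *Inha* or either *Gdnf* window. Motif positions and CG counts of *Inha* and *Gdnf* thus refer to RefSeq starts that vM21 transcripts did not match.

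The other members were also set against *Clu* within each library, to see which of them kept a steady ratio to it. *Cldn11* was 7.56% to 12.9% of *Clu* in the 8 TruSeq libraries, where *Clu* itself ranged from 18.8 to 138 TPM, and 7.27% to 26.8% in the 4 Smart-Seq2 libraries. *Inha* was 5.98% to 25.4% of *Clu* in these libraries and 12.2% to 19.4% in the 4 Win18446 libraries alone, and 2.30% to 10.9% in the Smart-Seq2 libraries. *Dhh* was 1.06% to 4.05% of *Clu* in the TruSeq libraries. *Wt1* was 27.4% to 34.9% of *Clu* in WT and 8.50% to 13.8% after Win18446, and these ranges did not overlap. *Sox9* was 1.09% to 3.82% of *Clu* in the TruSeq libraries and 19.8% to 246% in the Smart-Seq2 libraries. At 2 mo, *Wt1* was 34.8% and 50.0% of *Clu* in the libraries labelled PRC1ctrl and 7.10% and 7.17% in those labelled PRC1cKO.

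**Figure D2:**
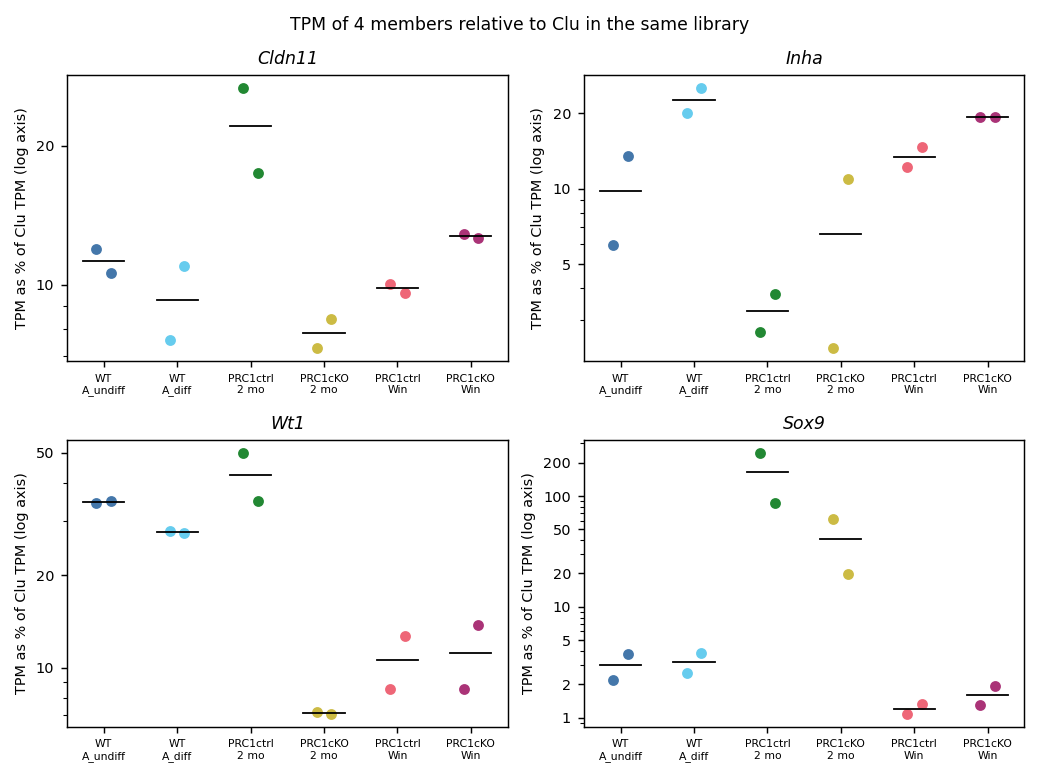
TPM of *Cldn11*, *Inha*, *Wt1* and *Sox9* as a percentage of *Clu* TPM in the same library, on log axes. Points are libraries and bars are means of 2. *Cldn11* stays within 7.56% to 12.9% in the TruSeq libraries, while *Sox9* spans 1.09% to 246% over all 12.

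The members also varied together inside the Win18446 groups. *Clu* was 1.73 times higher in replicate 1 than in replicate 2 of PRC1ctrl and 1.79 times higher in replicate 1 of PRC1cKO. The corresponding ratios were 1.81 and 1.82 for *Cldn11*, 1.44 and 1.79 for *Inha*, 1.16 and 1.85 for *Dhh*, and 1.17 and 1.10 for *Wt1*. Replicate 1 was above replicate 2 in both groups for 7 of the 9 members, against 13.5% of all genes listed above 0, and for 20 of the 25 genes of a wider Sertoli list. The exceptions were *Amh*, whose PRC1ctrl values were 0.64 and 0.69 TPM, and *Gdnf*, whose PRC1cKO values were equal. The summed TPM of 8 Leydig cell markers was also higher in replicate 1, at 435 against 86.7 TPM in PRC1ctrl and 85.3 against 24.1 TPM in PRC1cKO. Peritubular myoid markers (77.4 against 54.4 and 81.5 against 64.5 TPM) and macrophage markers (51.5 against 31.6 and 32.7 against 26.1 TPM) were higher in replicate 1 as well, while endothelial markers were lower (37.9 against 40.4 and 52.8 against 59.5 TPM). The part of these cells in the members' values was not tested.

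Over the 12 libraries, Pearson's r of log2(TPM + 1) was 0.94 between *Clu* and *Cldn11*, 0.91 between *Clu* and *Inha*, 0.96 between *Dhh* and *Inha* and 0.93 between *Amh* and *Dhh*. *Wt1* correlated with *Clu* at 0.79, and *Sox9* correlated negatively with each of the other 8, from -0.78 with *Wt1* to -0.27 with *Fshr*. These values describe 12 libraries that share kits, strains and treatments in blocks of 4. Among 19204 other genes with at least 1 TPM in at least 2 libraries, those most like *Clu* were *Ly6e* and *Shtn1* (r = 0.97 for both), and those most like *Cldn11* were *Ltbp3* (0.97) and *Lama2* (0.97), which encodes a laminin chain. *Inha* was closest to *Edn3* (0.98), encoding an endothelin, and the kinase gene *Syk* (0.97), and *Dhh* to *Fndc5* (0.98) and *Gpd1* (0.96). *Wt1* was closest to *Rbms2* (0.995) and the transcription factor gene *Atoh8* (0.99), and *Sox9* to *Slc25a31* (0.99), a carrier gene of germ cells, and *Sdcbp* (0.97).

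Whether the members differ between A_undiff and A_diff was examined in the 4 WT libraries with limma on log2(TPM + 1). 4 members passed the filter of 1 TPM in at least 2 of the 4 libraries, and none was called at an adjusted p under 0.05 with an absolute log2 fold change above 1, against 20.4% of the 15470 genes tested. *Wt1* was lower in A_diff by a log2 fold change of -0.82 (SE 0.21, limma adjusted p = 0.0251) and *Clu* by -0.58 (SE 0.16, limma adjusted p = 0.0332), both in 2 of 2 libraries and both under the fold threshold. An adjusted p under 0.05 was reached by 38.1% of all genes tested. An unadjusted p under 0.05 was reached by the same 2 members and by 49.1% of the genes. *Cldn11* differed by -0.63 (95% confidence interval -1.28 to 0.02, limma adjusted p = 0.108) and *Inha* by 0.52 (-0.39 to 1.43, limma adjusted p = 0.311). When each library was left out, *Inha* ranged from 0.026 to 1.02 and *Cldn11* from -0.82 to -0.44. The adjusted p of *Wt1* ranged from 0.0151 to 0.150 and that of *Clu* from 0.0151 to 0.187 over the alternatives, and both exceeded 0.05 without the filter on low values and without either WT A_undiff library. Without WT A_diff replicate 1 that of *Clu* was 0.0632.

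Counted over all 9 members, 3 had both A_diff libraries below both A_undiff libraries (*Wt1*, *Clu* and *Cldn11*), against 22% of all genes above 0, and 2 had them above (*Dhh* and *Gdnf*), against 30.3%. The 4 others overlapped. The median log2 fold change of the tested members was -0.61 beside 0.15 for all genes tested. The medians of the other somatic marker lists were negative too, at -0.37 for Leydig cells (none of 5 tested called), -0.51 for peritubular myoid cells (none of 8), -0.59 for macrophages (1 of 7 lower), -0.85 for endothelial cells (1 of 6 lower) and -0.58 for erythroid cells (1 of 4 lower). By summed TPM the A_undiff and A_diff libraries overlapped for each of these lists but the erythroid one (4.73 and 11.5 against 3.98 and 3.08 TPM). Spermatid markers were also lower in A_diff without overlap (826 and 902 against 566 and 750 TPM), with none of 8 called. Spermatocyte markers overlapped (147 and 122 against 166 and 140 TPM). The part of these cells in the members' values was not tested. Median-of-ratios scaling moved the median of all genes to -0.01, and *Wt1* and *Clu* then differed by -0.97 and -0.75. The wider list of 25 Sertoli genes had 22 tested, of which 5 fell in A_diff and 1 rose, against 9.24% and 11.1% of all genes. *Trf*, encoding transferrin, fell from 59.2 and 47.0 to 2.82 and 4.30 TPM. *Rhox5*, the keratin gene *Krt18* and *Aldh1a1* fell by 1.11 to 1.21 on the log2 scale, and *Espn*, encoding an actin bundler of Sertoli cell junctions, rose by 1.01.

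Of 20 receptors, subunits and partners of the members' products, 16 were tested, 4 fell in A_diff and 3 rose, against 9.24% and 11.1% of all genes. The GDNF receptor genes *Gfra1* (70.5 and 68.1 against 3.55 and 4.06 TPM) and *Ret* (96.7 and 124 against 5.73 and 5.60 TPM) fell, as did the hedgehog receptor gene *Ptch1* (40.7 and 45.2 against 1.39 and 4.03 TPM) and the activin-binding *Fst* (29.4 and 27.1 against 2.62 and 4.08 TPM). The clusterin receptor genes *Lrp8* (4.73 and 4.18 against 49.4 and 58.1 TPM) and *Vldlr* (1.71 and 1.06 against 4.62 and 4.37 TPM) and the activin receptor gene *Acvr2b* (23.5 and 26.2 against 47.0 and 60.3 TPM) rose. The receptors of *Gdnf* thus stood at far higher TPM than their ligand in WT A_undiff, where *Gdnf* was at 0 and 0.07 TPM.

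Whether the libraries labelled PRC1cKO and PRC1ctrl differ at 2 mo was examined in the 4 Smart-Seq2 libraries. *Clu* had 19.5 and 29.0 TPM under PRC1cKO and 2.24 and 9.52 TPM under PRC1ctrl, higher in 2 of 2 libraries. *Sox9*, *Wt1*, *Clu* and *Cldn11* were tested, and none was called with limma, against 2.16% of the 13953 genes tested. *Clu* alone had an unadjusted p under 0.05 (0.0208), as had 14.2% of all genes. Its log2 fold change was 2.09 (SE 0.65, 95% confidence interval 0.46 to 3.72, limma adjusted p = 0.226). With a block on replicate number it was called at the same difference (limma adjusted p = 0.000254). That fit called 1074 genes higher and 1098 lower of the 13953, and the labels share only replicate numbers. Without PRC1ctrl replicate 2 it was called, at 2.94 (limma adjusted p = 0.0371), and without PRC1ctrl replicate 1 it was 1.24 (limma adjusted p = 0.939). Over all alternatives the adjusted p ranged from 0.000254 to 0.939. *Sox9* differed by 0.28 (-0.98 to 1.55), *Wt1* by -0.16 (-1.38 to 1.07) and *Cldn11* by 0.48 (-0.61 to 1.57), with limma adjusted p of 0.663 to 0.901.

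The members below the filter were compared by their values alone. *Inha* went from 0.06 and 0.36 TPM under PRC1ctrl to 0.45 and 3.16 TPM under PRC1cKO, a difference of 1.03 on the log2(TPM + 1) scale that came largely from 1 library. In all, 4 of the 9 members (*Clu*, *Inha*, *Dhh* and *Gdnf*) had both PRC1cKO libraries above both PRC1ctrl libraries, against 21.1% of genes, and none had both below, against 14.6%. *Dhh* and *Gdnf* stayed under 0.4 TPM in these libraries. The median of the 4 tested members was 0.38 beside 0.22 for all genes, and the latter became -0.04 after median-of-ratios scaling. Among the other somatic lists, Leydig and macrophage markers had both PRC1cKO libraries above both PRC1ctrl libraries, at 17.9 and 30.9 against 6.66 and 16.8 TPM for macrophages. Peritubular myoid markers (12.2 and 28.2 against 13.6 and 36.0 TPM) and the wider Sertoli list (285 and 432 against 322 and 459 TPM) overlapped between the labels, as did endothelial and erythroid markers. After median-of-ratios scaling the sum of the wider list was lower under PRC1cKO (477 and 508 against 729 and 673), without overlap. Its highest genes under PRC1ctrl were *Ctsl* (105 and 123 TPM under PRC1cKO against 126 and 157 TPM) and *Cst9* (30.8 and 77.9 against 94.0 and 130 TPM). On unscaled TPM the median log2 fold change of its 17 tested genes was 0.30, so the sum does not stand for most genes of the list. After the same scaling, erythroid markers were lower (1.49 and 2.55 against 3.06 and 2.67) and endothelial markers higher (30.2 and 58.6 against 23.7 and 26.6), also without overlap. The Leydig list summed to 1.39 and 1.41 TPM under PRC1ctrl and to 24.8 and 68.6 TPM under PRC1cKO, 7 of its 8 genes were at or above 1 TPM in both PRC1cKO libraries and none in both PRC1ctrl libraries, and the steroidogenic gene *Hsd3b1* rose (log2 fold change 2.88, limma adjusted p = 0.0421). The 8 spermatid genes summed to 769 and 1820 TPM under PRC1ctrl and to 58.6 and 50.7 TPM under PRC1cKO. The part of these cells in the *Clu* values was not tested.

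No gene of the wider Sertoli list or of the partner list was called at 2 mo among the 17 and 11 tested. *Aldh1a1* stood at 3.94 and 5.63 TPM under PRC1ctrl and at 25.0 and 27.9 TPM under PRC1cKO (limma adjusted p = 0.0599), and *Krt18* at 2.69 and 3.23 against 11.3 and 10.9 TPM (limma adjusted p = 0.129). Both were chosen after their values were seen. *Cst9*, the Sertoli gene testatin, was at 94.0 and 130 TPM under PRC1ctrl and at 30.8 and 77.9 TPM under PRC1cKO, and at 3.75 to 9.36 TPM in WT, so the Smart-Seq2 libraries were not low for every Sertoli gene.

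**Figure D3:**
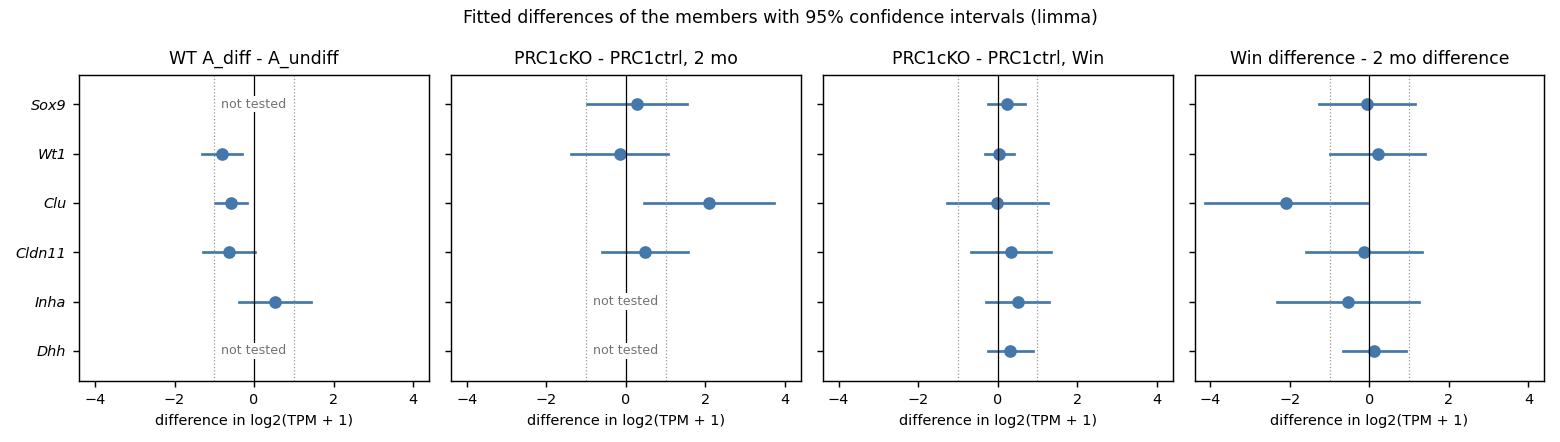
Fitted differences in log2(TPM + 1) of the 6 members that passed the filter in any comparison. Points are limma estimates, lines are 95% confidence intervals, dotted lines mark the fold threshold of 1, and the last panel is the genotype difference after Win18446 minus that at 2 mo. The interval of *Clu* at 2 mo runs from 0.46 to 3.72, while all 6 intervals after Win18446 include 0.

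The same genotype comparison after Win18446 gave *Clu* values that were nearly alike, 138 and 77.1 TPM under PRC1cKO and 136 and 78.6 TPM under PRC1ctrl. In all, 6 members were tested (*Sox9*, *Wt1*, *Clu*, *Cldn11*, *Dhh* and *Inha*). With limma none was called, against 12.2% of 16521 genes, and none had an unadjusted p under 0.05, against 44.3%. *Clu* differed by -0.01 with a 95% confidence interval of -1.28 to 1.27. The intervals were narrower for *Wt1* (-0.32 to 0.41, estimate 0.05) and *Sox9* (-0.23 to 0.68, estimate 0.23). *Inha* differed by 0.50 (-0.29 to 1.3), *Cldn11* by 0.34 (-0.67 to 1.35) and *Dhh* by 0.32 (-0.24 to 0.88). When each library was left out, *Inha* ranged from 0.10 to 0.90, *Dhh* from 0.032 to 0.61 and *Sox9* from 0.085 to 0.37. The limma adjusted p of the 6 lay between 0.277 and 0.994.

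3 of the 9 members, *Sox9*, *Amh* and *Gdnf*, had both PRC1cKO libraries above both PRC1ctrl libraries after Win18446, against 14.5% of genes, and none had both below, against 40.4%. The median of the tested members was 0.27 beside -0.19 for all genes, which became 0.03 after median-of-ratios scaling. In the wider list, *Krt18* rose from 4.31 and 4.25 to 11.8 and 12.2 TPM (log2 fold change 1.3, limma adjusted p = 0.00267) and was the only one of 24 tested genes called, against 1.27% of all genes called higher. In the partner list, *Tgfbr3*, encoding betaglycan, the co-receptor of inhibin, fell from 12.5 and 11.6 to 4.70 and 6.16 TPM and was the only one of 17 tested genes called, against 10.9% of all genes called lower. *Amhr2*, the AMH receptor gene, was at 31.7 and 18.1 TPM under PRC1ctrl and 35.3 and 18.9 TPM under PRC1cKO, above the 0.24 to 9.28 TPM of the other 8 libraries.

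Whether the genotype difference itself changed with the treatment was tested as an interaction over the 8 PRC1 libraries, in which treatment and library kit cannot be told apart. None of the 6 members tested was called with limma, against 7.74% of 18354 genes, and *Clu* alone had an unadjusted p under 0.05 (0.0454), as had 24.7% of all genes. *Dhh* and *Inha* passed the filter through the Win18446 libraries. At 2 mo *Dhh* was at or under 0.38 TPM in all 4 libraries and *Inha* exceeded 1 TPM in 1, so both were untested there and their interaction rests in part on these low values. The difference between PRC1cKO and PRC1ctrl in *Clu* was smaller after Win18446 by -2.09 on the log2 scale (SE 0.85, 95% confidence interval -4.13 to -0.06, limma adjusted p = 0.192). With a block on replicate number it was called at the same value (limma adjusted p = 0.0355), in a fit that called 689 genes higher and 2249 lower of the 18354. Without untreated PRC1ctrl replicate 2 it was called, at -2.94 (limma adjusted p = 0.0499), and without untreated PRC1ctrl replicate 1 it was -1.24 (limma adjusted p = 0.332). Leaving out any other library gave no call. The adjusted p ranged from 0.0355 to 0.448 over all alternatives. The estimates of the other 5 lay between -0.53 for *Inha* and 0.20 for *Wt1*, with limma adjusted p of 0.695 to 0.956. The median of all genes tested was -0.41, and 0.14 after median-of-ratios scaling. No gene of the wider list or the partner list was called among 24 and 18 tested. In the Leydig list *Insl3* was called, with an interaction of -5.82 (limma adjusted p = 0.0478). The erythroid genes *Hba-a1* (-2.25) and *Hbb-bs* (-1.94) were called too. Called in the other direction were the spermatid genes *Prm1* (3.14) and *Tnp2* (3.66) and the spermatocyte gene *Ldhc* (3.68). No peritubular myoid, macrophage or endothelial marker was called. The part of these cells in the *Clu* values was not tested.

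Markers of other somatic cells were detected in all groups and did not all follow the members. The wider Sertoli list summed to 514 to 830 TPM after Win18446 and to 232 to 459 TPM in the other 8 libraries. After median-of-ratios scaling this separation was lost, with 323 to 608 after Win18446 and 673 and 729 in untreated PRC1ctrl, whereas the 9 members kept it, with 69.7 to 161 against 21.8 to 59.0. Of the 25 genes of the wider list, 5, among them *Gata4*, *Aard*, *Defb19* and *Shbg*, were highest in all 4 Win18446 libraries, against 5.62% of all genes. After median-of-ratios scaling 3 of the 5 were, against 2.98%, and *Shbg* was no longer among them. The Leydig list spanned 24.1 to 435 TPM after Win18446 and 1.39 to 68.6 TPM elsewhere, so these ranges overlapped. Its leading gene *Insl3*, a Leydig cell hormone, gave 292 and 64.5 TPM in PRC1ctrl and 52.7 and 13.3 TPM in PRC1cKO after Win18446. Peritubular myoid markers summed to 54.4 to 81.5 TPM after Win18446 and 12.2 to 94.1 TPM elsewhere, where only WT A_undiff replicate 2 exceeded 36.5 TPM. Macrophage markers summed to 26.1 to 51.5 and 6.66 to 30.9 TPM, and only untreated PRC1cKO replicate 2 exceeded 21.6 TPM elsewhere. After median-of-ratios scaling, untreated PRC1 libraries overlapped both lists, at up to 52.8 and 36.2 against 34.2 to 65.2 and 19.8 to 32.9 after Win18446. Endothelial markers summed to 37.9 to 59.5 TPM after Win18446 and 10.5 to 68.8 TPM elsewhere. Erythroid markers stayed at or below 11.5 TPM, with 3 of 5 genes at 0 in both PRC1cKO libraries after Win18446. Spermatocyte markers summed to 122 to 768 TPM and spermatid markers to 17.4 to 1820 TPM over the 12 libraries. The part of these cells in the members' values was not tested.

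**Figure D4:**
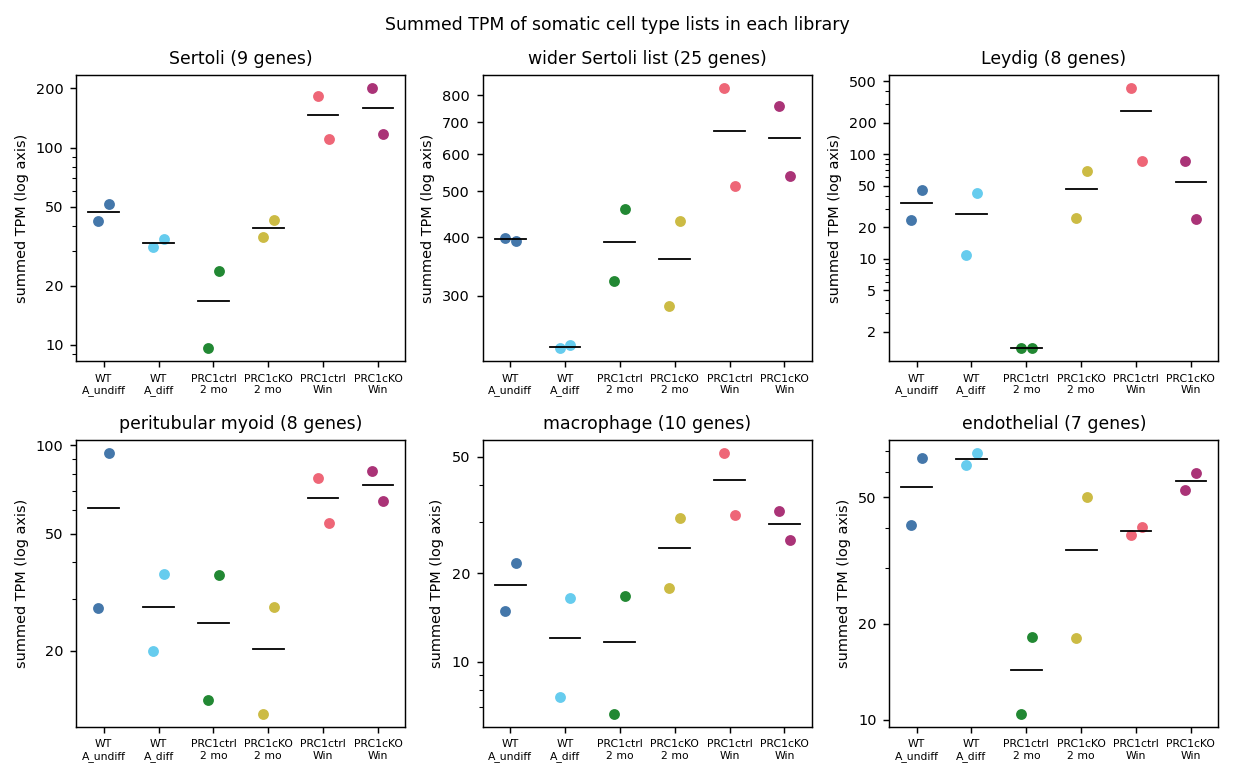
Summed TPM of the 9 members and of 5 other marker lists in each library, on log axes. Points are libraries, bars are means of 2, and the number of genes per list is in parentheses. On this unscaled TPM both Sertoli lists are highest in the 4 Win18446 libraries (111 to 201 TPM for the 9 members), which after median-of-ratios scaling holds for the 9 members and not for the wider list. The other lists overlap between treatments, on unscaled TPM through WT A_undiff replicate 2 alone for peritubular myoid markers and through untreated PRC1cKO replicate 2 alone for macrophage markers.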

How the data were processed

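The authors trimmed reads with Trim Galore 0.6.6, aligned them to GRCm38/mm10 with HISAT2 2.2.1, kept reads of high mapping quality with SAMtools 1.9, and deposited TPM computed with RSEM 1.3.3 for 55385 genes. TPM was used as log2(TPM + 1), without further scaling, and fold changes on this scale understate the change of low genes. Genes with at least 1 TPM in at least 2 of the libraries compared were tested with limma 3.58.1 in R 4.3.3 (trend and robust moderation, two-sided, checked on simulated data), with Benjamini-Hochberg adjustment across every gene that entered the fit. A call required both an adjusted p below 0.05 and a log2 fold change beyond 1 in either direction. With 2 libraries against 2, an exact permutation test cannot give p below 0.333, so p-values rest on variances pooled across genes and on the spread between pools. The genes named are the 9 members, for each member with at least 1 TPM in 2 libraries the 2 genes with the highest Pearson correlation, called genes of the wider Sertoli and partner lists, and *Ring1* and *Rnf2*; other names were chosen after their values were seen. One gene that this rule covers is not reported here. Members and lists were chosen with earlier results of these data known. Alternatives were a pseudocount of 0.1, no filter, a mean of at least 5 TPM, median-of-ratios scaling, a replicate block, Spearman's correlation, and leaving out each library. Python 3.11.15, pandas 2.3.3, numpy 2.4.6 and matplotlib 3.10.9 were used.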

Additional observations from a re-analysis of the deposited data

How the results depend on the processing

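With 2 libraries per group and no read counts, the interval of each tested member is the limit that these data set. Members called remained at 0 for WT and after Win18446 under all alternatives. At 2 mo and for the interaction the count was 0 to 1 when each library was left out, and 1 with the replicate block, each time *Clu*: at 2 mo it differed by 2.09 with the block (limma adjusted p = 0.000254) and by 2.94 without untreated PRC1ctrl replicate 2, and the interaction was -2.09 with the block (limma adjusted p = 0.0355) and -2.94 without that library. The labels share only replicate numbers, and deviations of same-numbered libraries correlated at 0.158 in WT, 0.381 at 2 mo and 0.122 after Win18446. The block raised the genes called at 2 mo from 31 higher and 270 lower to 1074 and 1098, and changed no other call of a member. With it, *Inha* after Win18446 had a limma adjusted p of 0.0304 at a difference of 0.50, under the fold threshold. The interval of *Clu* there was -0.23 to 0.22 with the block.

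Differences of members that were not called changed sign in some settings, and the cause was not tested. Leaving out each library gave -0.20 to 0.77 for *Sox9* and -0.67 to 0.35 for *Wt1* at 2 mo. After Win18446 it gave -0.055 to 0.15 for *Wt1*, -0.42 to 0.41 for *Clu* and -0.059 to 0.74 for *Cldn11*. For the interaction it gave -0.54 to 0.43 for *Sox9*, -0.31 to 0.72 for *Wt1*, -0.54 to 0.26 for *Cldn11*, -0.16 to 0.42 for *Dhh* and -1.29 to 0.23 for *Inha*. Median-of-ratios scaling gave 0.24 for *Clu* after Win18446, and 0.38 for *Sox9* and 0.30 for *Cldn11* in the interaction. A pseudocount of 0.1 gave 0.054 for *Sox9* and -0.32 for *Dhh* in the interaction. The 5 members that were highest in all 4 Win18446 libraries became 6 without WT A_undiff replicate 2 or without PRC1ctrl replicate 2 after Win18446, an alternative chosen after seeing the data. With Spearman's correlation, the 2 most similar genes differed in part or in full for all 6 members. Median-of-ratios scaling over the 12 libraries moved 46 group means of summed marker TPM, and 24 of the members, by more than the SD of the group, and 20 and 30 by less.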
